A study of Citrus sinensis with 6 samples.

Results

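NAC, HAP3 and AP1 are 3 transcription factor genes that carry a symbol in the transcript annotation of the sweet orange (Citrus sinensis). They were taken as every row of the 6 deposited transcript tables with one of these gene names, which gave 3 of 31688 genes and 4 of 59106 transcripts. The value of a gene was the sum of its transcripts' FPKM, the fragment count scaled by transcript length and library size, in each library.

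RNA was sequenced from excised albedo, the white inner layer of the peel, 3 days after inoculation. In 3 libraries, the SA libraries, the fruit had received the yeast Rhodotorula mucilaginosa, applied as an antagonist, with 0.2 mM salicylic acid (SA), a hormone of plant defence. In the other 3, the yeast-only libraries, it had received R. mucilaginosa without the hormone, so the yeast was common to all 6 and no untreated fruit was analysed here. The labels give no cultivar, and do not say what the inoculum was or whether the libraries came from separate fruit, and the p-values then reflect only how far these samples vary, which may be technical.

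NAC proteins are a large plant family that binds DNA through a conserved N-terminal domain, and members are known for roles in leaf senescence, fruit ripening and stress responses. HAP3, named after its yeast counterpart and also called NF-YB, is a histone-fold subunit of the heterotrimer that binds the CCAAT box of promoters. AP1 (APETALA1) is a MADS-box factor that in Arabidopsis specifies floral meristems and the outer floral organs. The files and the reference table give the symbols but no product names, so these roles rest on the symbols.

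Depth, read as deposited coverage divided by FPKM, was 4.78 to 5.24 gigabases in the SA libraries and 4.11 to 4.87 gigabases in the yeast-only libraries. Between 17017 and 17586 genes reached 1 FPKM in a library. Across 17355 genes, which are not independent replicates, the 15 pairs of libraries correlated at 0.964 to 0.981 in log2(FPKM + 1), and no pair shared a gene value above 0.

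The 3 genes stood at very different levels. NAC averaged 205 FPKM over the 6 libraries, above 96.3% of the 17355 genes with a mean of at least 1 FPKM, and HAP3 averaged 128 FPKM, above 93.9% of them. AP1 averaged 7.28 FPKM, which placed it in the middle range, above 40.9% of those genes. RNA of this floral regulator by its symbol was thus listed in every peel library, at 6.15 to 10.3 FPKM. NAC was above HAP3 in 6 of 6 libraries, by 1.05-fold to 3.04-fold in FPKM. HAP3 was above AP1 in 6 of 6, by 11.6-fold to 33.8-fold. Each order had an exact two-sided sign-flip permutation p of 0.0312, the smallest that 6 libraries allow, and an adjusted p of 0.0573 over the 11 pairs of genes compared. Most of these pairs were neighbours in the order of means of these same libraries, so the p-values are no independent test of the order. They cover the spread between libraries and not the choice of scale, which is described below.

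NAC lies on sequence NC_023046.1 from 9066541 to 9068293 on the plus strand, with 1 annotated transcript of 3 exons and 1190 bases. The sources used here do not give the genome build. NAC was at 191, 154 and 244 FPKM in SA libraries 1 to 3, against 231, 219 and 191 FPKM in yeast-only libraries 1 to 3. The highest and the lowest of the 6 libraries were both SA libraries, so the groups overlapped. Means were 196 ± 45.2 FPKM in the SA libraries and 213 ± 20.4 FPKM in the yeast-only libraries (SD, n = 3 each). In a fit of limma across 17355 genes the difference in log2(FPKM + 1) was -0.14 (SE 0.18, 95% interval -0.55 to 0.27, adjusted p = 0.978), and NAC did not pass the threshold of 0.05. The interval spans 0.685-fold to 1.20-fold in FPKM + 1. Changes within that range remain compatible with these libraries, and the range is not a limit of detection. The sign rested on 1 library, since the difference was 0.021 without SA library 2.

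The 3' end of NAC overlaps the annotated gene LOC102614284 on the opposite strand by 53 bases. That gene was at 0.724, 1.26 and 0.931 FPKM in SA libraries 1 to 3, against 0.492, 0.830 and 0.610 FPKM in yeast-only libraries 1 to 3. Whether the counting used strand is not given, and the overlapping gene was far below NAC in every library. The nearest annotated gene on the other side lay 10651 bases away.

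A second gene, LOC102608057, has NAC as its synonym in the reference gene table. It stood at 89.4, 82.4 and 102 FPKM in SA libraries 1 to 3, against 92.2, 76.2 and 104 FPKM in yeast-only libraries 1 to 3. The groups overlapped, with means of 91.1 ± 9.68 FPKM in the SA libraries and 90.6 ± 13.7 FPKM in the yeast-only libraries (SD, n = 3 each). NAC was above it in 6 of 6 libraries, by 1.84-fold to 2.87-fold in FPKM. The difference of LOC102608057 in log2(FPKM + 1) was 0.013 (SE 0.15, 95% interval -0.33 to 0.35, adjusted p = 0.998 in limma), and -0.022 with median-of-ratios scaling. NAC genes form a family of similar sequences, and the sources used here do not say how reads shared between them were assigned.

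HAP3 lies on NC_023052.1 from 1331856 to 1332555 on the minus strand, as a single exon of 700 bases with 1 transcript. It was at 143, 118 and 80.2 FPKM in SA libraries 1 to 3, against 128, 208 and 94.4 FPKM in yeast-only libraries 1 to 3. Yeast-only library 2 was the highest library and SA library 3 the lowest, 2.59-fold apart. The groups overlapped, with means of 114 ± 31.4 FPKM in the SA libraries and 143 ± 58.3 FPKM in the yeast-only libraries (SD, n = 3 each). The difference in log2(FPKM + 1) was -0.30 (SE 0.30, 95% interval -0.97 to 0.38, adjusted p = 0.978 in limma), so HAP3 did not pass. This interval spans 0.511-fold to 1.30-fold in FPKM + 1. Without yeast-only library 2 the difference was 0.0083.

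HAP3 was the most variable of the 3 genes between libraries of a group. Its SD within groups was 0.50 in log2(FPKM + 1), above that of 95.6% of the 1644 tested genes within 2-fold of its mean FPKM, whose median SD was 0.18. The SD of NAC was 0.25, above 73.4% of the 1072 genes within 2-fold of its mean. That of AP1 was 0.24, above 56.5% of the 5752 genes within 2-fold of its mean. Coverage was 383 to 1013 reads per base for HAP3 and 807 to 1166 for NAC, and its part in the spread was not tested. The next gene upstream of HAP3, LOC102617699, begins 733 bases away on the opposite strand. It was at 17.4, 16.7 and 14.9 FPKM in SA libraries 1 to 3, against 16.6, 19.4 and 17.1 FPKM in yeast-only libraries 1 to 3. Its highest and lowest libraries were those of HAP3, at a range of 1.30-fold against 2.59-fold. No annotated gene overlaps HAP3, and the nearest, LOC107177612, 256 bases away, was at or below 0.106 FPKM in every library.

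**Figure D1:**
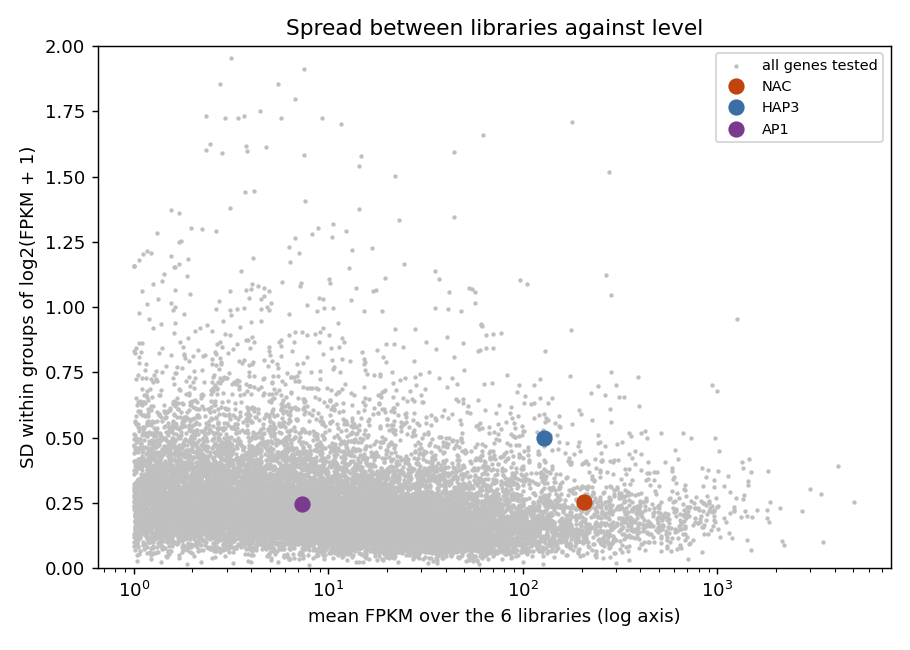
Each grey point is 1 of the genes tested, with its mean FPKM over the 6 libraries on a log axis and its SD within groups in log2(FPKM + 1); 23 genes lie above the axis. HAP3 (SD 0.50) sits above most genes of its level, while NAC (0.25) and AP1 (0.24) lie within the main cloud.

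**Figure D2:**
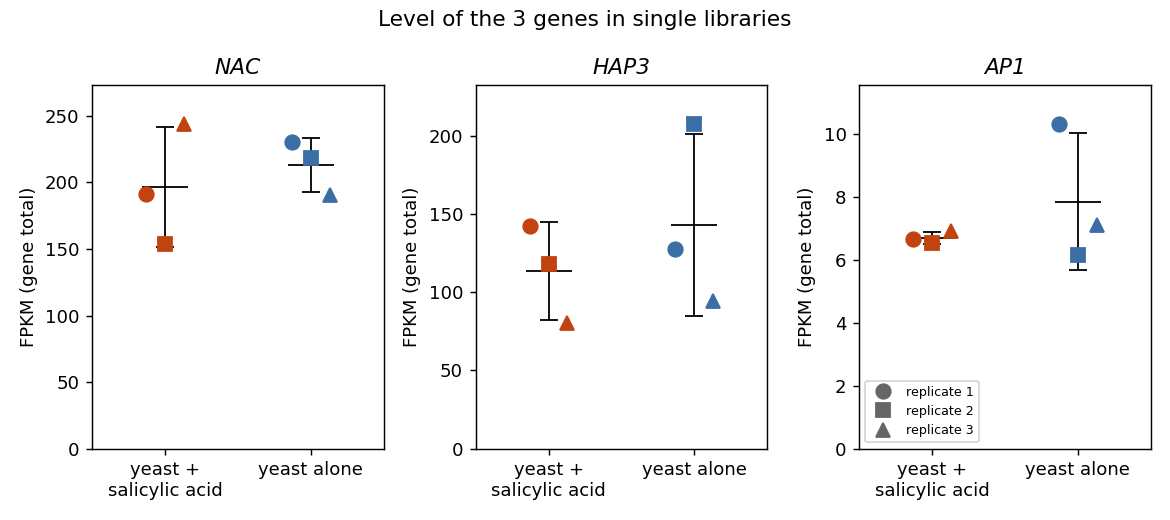
Gene totals in FPKM for NAC, HAP3 and AP1 in each library, with yeast plus salicylic acid on the left and yeast alone on the right of each panel; bars give the mean and SD of 3 libraries and marker shapes the replicate number. The groups overlap in all 3 genes, and AP1 in the SA libraries lies between 6.53 and 6.92 FPKM.

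AP1 lies on NC_023052.1 from 7788690 to 7794334 on the plus strand, on the same sequence as HAP3 and LOC102608057. Its total was at 6.67, 6.53 and 6.92 FPKM in SA libraries 1 to 3, against 10.3, 6.15 and 7.11 FPKM in yeast-only libraries 1 to 3. The SA libraries lay inside the range of the yeast-only libraries, and yeast-only library 1, the shallowest library at 4.11 gigabases, stood above the other five. Means were 6.71 ± 0.201 FPKM in the SA libraries and 7.86 ± 2.19 FPKM in the yeast-only libraries (SD, n = 3 each). The difference in log2(FPKM + 1) was -0.17 (SE 0.19, 95% interval -0.61 to 0.27, adjusted p = 0.978 in limma), a range of 0.654-fold to 1.20-fold in FPKM + 1, and AP1 did not pass. Without yeast-only library 1 the difference was 0.017. The part of depth in the value of that library was not tested.

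The gene downstream of AP1, LOC102621029, ends 86 bases away on the opposite strand. It was at 5.99, 4.78 and 6.22 FPKM in SA libraries 1 to 3, against 9.15, 5.62 and 8.95 FPKM in yeast-only libraries 1 to 3. Yeast-only library 1 was the highest library here too, and the groups overlapped. Its difference in log2(FPKM + 1) was -0.40 (SE 0.21, adjusted p = 0.960 in limma). The gene upstream of AP1, LOC102620094, 12905 bases away, was at 79.4 to 89.5 FPKM over the 6 libraries.

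AP1 is the 1 member with more than a single transcript. The shorter, NM_001288899.1, has 8 exons and 766 bases. The longer, XM_025100327.1, has 9 exons and 1147 bases, starts 185 bases further upstream and ends 228 bases further downstream. The shorter transcript was at 5.68, 5.55 and 5.85 FPKM in SA libraries 1 to 3, against 9.43, 5.28 and 6.56 FPKM in yeast-only libraries 1 to 3. It held most of the AP1 total in every library and overlapped between the groups. Its difference in log2(FPKM + 1) was -0.24 (SE 0.23, 95% interval -0.79 to 0.30, adjusted p = 0.931 in limma over 26605 transcripts).

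The longer AP1 transcript was at 0.987, 0.981 and 1.08 FPKM in SA libraries 1 to 3, against 0.898, 0.866 and 0.541 FPKM in yeast-only libraries 1 to 3. All 3 SA libraries were above all 3 yeast-only libraries, with means of 1.01 ± 0.0532 FPKM in the SA libraries and 0.769 ± 0.197 FPKM in the yeast-only libraries (SD, n = 3 each), a ratio of 1.32. Such an order was found in 5.48% of the 33106 transcripts with a mean of at least 0.5 FPKM. The transcript's mean of 0.892 FPKM was under the filter of 1 FPKM, so the planned test did not hold it. With no filter its difference in log2(FPKM + 1) was 0.19 (SE 0.20, 95% interval -0.30 to 0.69, adjusted p = 0.899 in limma over 50179 transcripts), and it did not pass. Of those transcripts 0.00996% passed and 4.58% reached p under 0.05 before adjustment.

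The longer transcript made up 14.8%, 15.0% and 15.5% of the AP1 FPKM in SA libraries 1 to 3, against 8.69%, 14.1% and 7.62% in yeast-only libraries 1 to 3. The groups did not overlap, but yeast-only library 2 came close to the lowest SA library, SA library 1. The mean share was 15.1% ± 0.380 in the SA libraries and 10.1% ± 3.46 in the yeast-only libraries (SD, n = 3 each), a difference of 4.99 percentage points. The exact two-sided permutation p was 0.1, the smallest that this test allows with 3 against 3 libraries, so this test cannot take the difference past 0.05. This comparison was chosen after the values were seen. Among 2977 lesser transcripts of genes with 2 transcripts and a mean share of 5% to 50%, the share was higher without overlap in 4.84%. Coverage of the longer transcript was 4.94, 5.14 and 5.14 reads per base in SA libraries 1 to 3, against 3.70, 4.22 and 2.49 in yeast-only libraries 1 to 3. Depth was 5.002, 5.24 and 4.78 gigabases in SA libraries 1 to 3, against 4.11, 4.87 and 4.60 gigabases in yeast-only libraries 1 to 3. The part of depth in the share was not tested.

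**Figure D3:**
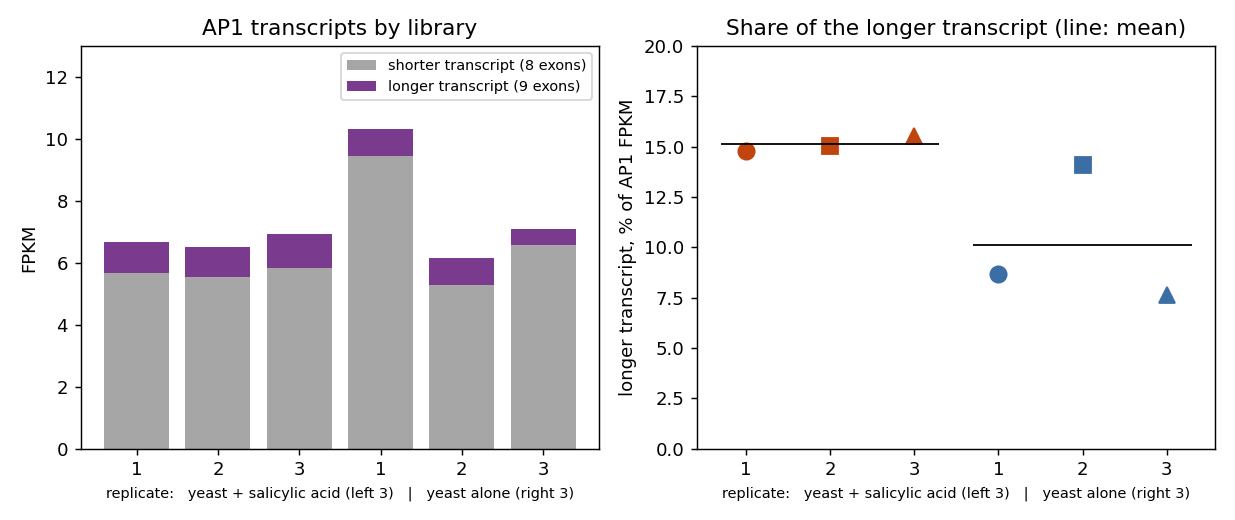
AP1 by transcript in each library, with the 3 libraries of yeast plus salicylic acid on the left and the 3 of yeast alone on the right: stacked FPKM of the shorter and the longer transcript (left panel) and the percent of the AP1 FPKM in the longer transcript, with lines at the group means (right panel). The share is 14.8% to 15.5% with salicylic acid and 7.62% to 14.1% with the yeast alone.

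Of the 3 genes, limma called 0 at the threshold, and 0 reached p under 0.05 before adjustment. Over all 17355 genes tested, 0.00576% passed and 5.23% reached p under 0.05 before adjustment. All 3 members had a lower mean log2 level with salicylic acid, as did 45.8% of all genes, and each of these signs turned with 1 library left out. The groups overlapped in all 3 genes, against 10.2% of all genes without overlap. Of the 3 member transcripts that passed the filter, limma called 0, and 0 reached p under 0.05 before adjustment, against 0.0338% and 5.18% of the 26605 transcripts.

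Other transcription factor genes were found by a pattern of family symbols, matched to symbols and synonyms. Besides the 3 members it matched 7 genes, of which 6 had a mean of at least 1 FPKM. Of the 6, limma called 0, and 0 reached p under 0.05 before adjustment. Differences in log2(FPKM + 1) were positive in 5 and negative in 1, with a median of 0.11 against 0.020 over all genes, and the groups overlapped in all 6.

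MYB8, of the MYB family, was at 38.0, 50.2 and 66.9 FPKM in SA libraries 1 to 3, against 38.9, 44.3 and 34.6 FPKM in yeast-only libraries 1 to 3. Its difference in log2(FPKM + 1) was 0.36 (SE 0.20, adjusted p = 0.962 in limma), and 0.16 without SA library 3. EREBP, an ethylene-responsive factor by its symbol, had the 1 negative difference, at -0.36 (SE 0.17, adjusted p = 0.960 in limma). It was at 49.5, 34.7 and 41.5 FPKM in SA libraries 1 to 3, against 59.8, 56.5 and 44.9 FPKM in yeast-only libraries 1 to 3.

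LOC102618338, with the synonym ERF, was at 49.5 ± 6.50 FPKM in the SA libraries and 43.1 ± 7.72 FPKM in the yeast-only libraries (SD, n = 3 each), a difference of 0.20 in log2(FPKM + 1). EIL1, named after the ethylene signalling factor EIN3, ranged from 63.3 to 104 FPKM in the SA libraries and from 52.0 to 109 FPKM in the yeast-only libraries. Its SD within groups was 0.49, close to that of HAP3, and its difference was 0.17 (SE 0.29). When annotated transcripts alone were summed the difference was 0.78 (SE 0.93, adjusted p = 0.960 in limma). ARF was at 33.4 ± 4.10 FPKM in the SA libraries and 32.2 ± 3.57 FPKM in the yeast-only libraries (SD, n = 3 each). Its symbol is used both for auxin response factors and for ADP-ribosylation factors, so its place in the list is uncertain. AGL62, a MADS-box gene by its symbol, was at 0 to 0.278 FPKM in the SA libraries and 0.161 to 0.542 FPKM in the yeast-only libraries. It was under the filter and was not tested in the main fit.

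**Figure D4:**
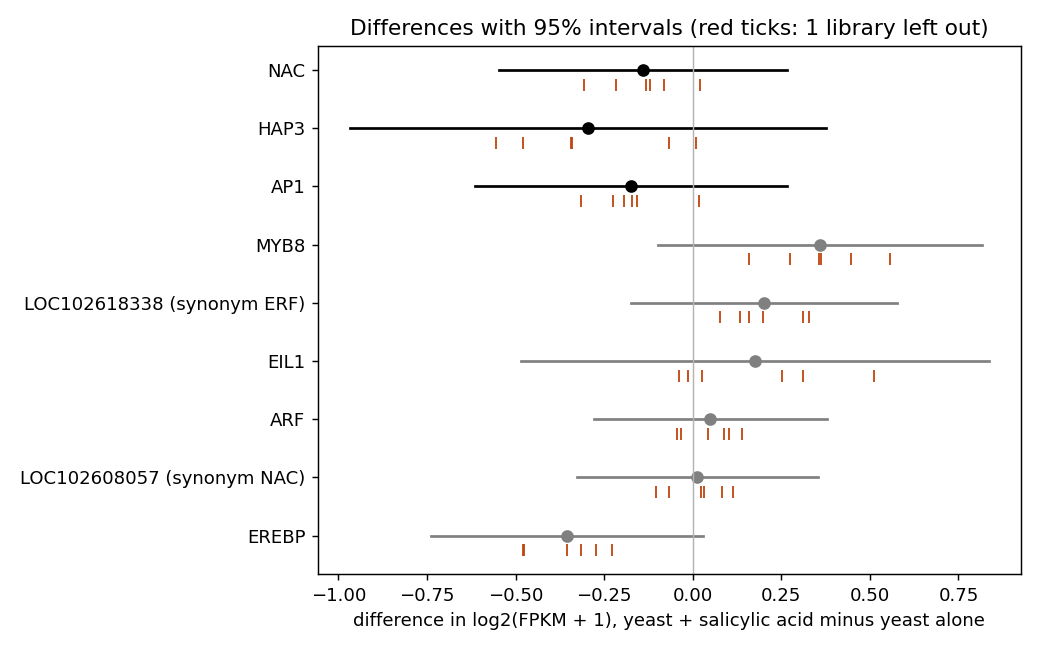
Differences in log2(FPKM + 1), yeast plus salicylic acid minus yeast alone, with 95% intervals from limma, for the 3 members (black) and 6 other transcription factor genes (grey); red ticks give the difference with each library left out in turn. All 9 intervals include 0.

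In mean summed transcript FPKM over the 6 libraries the order of these genes was NAC, HAP3, LOC102608057, EIL1, EREBP, LOC102618338, MYB8, ARF and AP1. On this scale AP1 was the lowest, below ARF in 6 of 6 libraries by 3.28-fold to 5.73-fold. HAP3 and LOC102608057 were not separated, since HAP3 was above it in 4 of 6 libraries, at ratios of 0.790 to 2.73 (exact sign-flip permutation p = 0.156, adjusted 0.191).

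These ratios, and in part the order, depend on the scale. In the authors' deposited table of gene values NAC was 4.13-fold to 6.41-fold above AP1, against 22.3-fold to 35.6-fold in the summed transcript FPKM. HAP3 was 1.77-fold to 5.20-fold above AP1 in the authors' deposited table. There the ratio of ARF to AP1 was 0.964 to 1.71, so AP1 was not the lowest in every library of the authors' deposited table. MYB8 was below ARF in all 6 libraries there, so it may lie below AP1 in more of them. The ratio of MYB8 to AP1 was not computed. In the authors' deposited table the ratio of HAP3 to LOC102608057 was 0.408 to 1.41. The order was turned in all 6 libraries of the authors' deposited table for LOC102608057 over EIL1 (0.165 to 0.389), EIL1 over EREBP (0.376 to 0.797) and MYB8 over ARF (0.435 to 0.729). FPKM times transcript length, summed over transcripts, was a fixed multiple of the value in the authors' deposited table in every library. The multiple was 2046 for NAC, 1411 for HAP3 and 254 for AP1, none of which is the length of a transcript of that gene. Libraries of NAC and HAP3, with 1 transcript each, compare alike in either source, while for AP1 the deposited value weights the longer transcript more. Differences from the authors' deposited table were -0.14 for NAC, -0.29 for HAP3 and -0.16 for AP1 on the log2(value + 1) scale.

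Genes with a symbol whose pattern over the 6 libraries was most like that of each member were ranked by the root mean square difference of log2(FPKM + 1), centred per gene, among 104 candidates. For NAC they were ETR3, an ethylene receptor gene by its symbol, at 0.16, and the chloroplast genes CisiCr002 and CisiCr007, at 0.17 each. CisiCr002 and CisiCr007 had near-equal values in every library, so they do not count as separate matches. For HAP3 they were TPS1, a terpene synthase gene by its symbol, at 0.31, the tRNA gene name TRNAR-CCG at 0.32 and CHI at 0.34. For AP1 they were LEA5, DHN and HMG, at 0.14 each. By their symbols LEA5 and DHN belong to the late embryogenesis abundant proteins and dehydrins, which protect cells under water loss. The median candidate was at 0.38 from NAC, 0.53 from HAP3 and 0.36 from AP1. Between 323 and 593 of all 17354 other genes were closer than the genes named, so the likeness is not close, and the points share libraries and depth. Like AP1, the genes LEA5, DHN and HMG were highest in yeast-only library 1, at 6521, 713 and 288 FPKM. They were picked by their pattern over these same libraries, so the shared highest library is no separate likeness.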

How the data were processed

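The 6 albedo libraries were grouped by their titles, 3 with yeast and salicylic acid and 3 with yeast alone. Sequencing was on an Illumina HiSeq, per the labels' protocols. The sources used here give no aligner, assembler, build, rule for shared reads or batch. Per the file headers, each deposited transcript table holds FPKM and a mean per-base coverage, an unnormalized signal. The deposited gene table is named as FPKM, but its values are a score in a unit of its own, and it was used as an alternative. FPKM were summed by gene name, put on the log2(FPKM + 1) scale and compared by limma (version 3.58.1, R 4.3.3; two-sided, mean-variance trend). Genes or transcripts entered at a mean of 1 FPKM or more, with Benjamini-Hochberg adjustment over all features and a threshold of 0.05. This scale understates changes of low genes. The test was checked on simulated data. Figures were drawn with matplotlib 3.10.9.

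The members and lists were chosen with earlier results of these data known. The text names the members and their transcripts, the expressed genes of the symbol list (AGL62, below the filter, and flanking genes were added after their values were seen) and, for each member, the 3 genes with a symbol of most similar pattern. A planned comparison with genes of similar protein was not made, since no protein sequences were used here, and no sequences are printed for the same reason. The reference table (assembly DVS_A1.0) was used for names and matched 23518 of the 31688 identifiers by symbol. Alternatives covered the pseudocount, filters, scaling, variance model, library weights, a replicate block, annotated transcripts, the deposited gene table and leaving out each library.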

Additional observations from a re-analysis of the deposited data

How the results depend on the processing

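Under 17 alternatives NAC, HAP3 and AP1 stayed short of the threshold, with adjusted p-values in limma of at least 0.751. Each kept its sign in 16. Leaving out 1 library gave log2 differences of -0.31 to 0.021 for NAC, -0.56 to 0.0083 for HAP3 and -0.32 to 0.017 for AP1, and the same ranges for the single transcripts of NAC (NM_001288863.1) and HAP3 (NM_001288878.1). The shorter AP1 transcript kept its sign in all 15 of its alternatives, and the longer one was held by the fit with no filter alone. The difference in the share of the longer AP1 transcript was 6.67 percentage points by covered bases and 3.74 to 6.97 with 1 library left out. Of the other transcription factor genes matched by symbol or synonym, 0 passed under any of the 17 alternatives in limma. An unadjusted p under 0.05 was reached by 0 to 2 of 6 (2 without SA library 1, where 1285 of all 17348 genes did). With no filter it was reached by 0 of 7. MYB8 was at 0.16 to 0.56 with 1 library left out. LOC102608057 was at -0.022 with median-of-ratios scaling and -0.00041 with library weights. With 1 library left out it was at -0.11 to 0.11, ARF at -0.043 to 0.14 and EIL1 at -0.038 to 0.51. The genes past the threshold over all genes, 1 in all, were 2 with a pseudocount of 0.1, robust variance, no mean-variance trend, library weights, the deposited gene table or the replicate block, 0 in limma when annotated transcripts alone were summed (806 at an unadjusted p under 0.05), and 1 to 5 with 1 library left out (5 without yeast-only library 2). The causes were not tested. With the replicate block the differences of NAC, HAP3 and AP1 were the same, with adjusted p-values in limma of 0.946, 0.875 and 0.935. The SE of HAP3 was 0.19 with the block and 0.30 without it, while those of NAC and AP1 were 0.18 and 0.19 in both. Equal numbers are not stated to pair the libraries, and their deviations from the group means correlated, by number, at 0.11, 0.19 and -0.0094. Libraries of unequal number correlated at -0.25 to 0.14. With 3 libraries in each group, the 95% interval of the median gene was 0.42 wide on either side in log2(FPKM + 1). Changes of the members within their own intervals remain compatible with the data, and those intervals are not limits of detection.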
